A study of Mus musculus with 8 samples.

Results

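DNA replication and chromatin assembly factors are the proteins that open the chromosome at origins, copy it and pack the new strands into nucleosomes. The set held 48 genes, of the 19057 gene symbols on the array, and it was chosen by name: every probe was taken whose symbol in the array's annotation is 1 of the 48. They had 83 of the 45281 probes. By role they comprise the Mcm2 to Mcm7 helicase, the origin recognition complex and its licensing partners, the factors that switch the helicase on, the sliding clamp with its loader, the single-strand binding proteins, the DNA polymerases, the enzymes that join lagging-strand fragments, the chromatin assembly and histone supply factors, and the cyclins E and E2f1 of the G1/S switch.

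The arrays were Illumina bead arrays hybridised with biotin-labelled total RNA from mouse leukaemia stem cells driven by the oncogene MLL-AF9. There were 3 groups, all in the same cells: knockdown with the hairpin Itgb3-17 (3 arrays), knockdown with the hairpin Itgb3-20 (2 arrays) and a control hairpin named Luc (3 arrays). Itgb3 encodes the integrin beta 3 subunit, and the study asked how lowering it changes expression in primary leukaemia cells. Every group came from bone marrow of leukaemic C57BL/6 Actin-dsRed mice after a quaternary transplant, sorted for dsRed, CD34, a high level of c-kit and of Fc gamma receptor II, and little Hoechst stain. Whether arrays of a group stand for separate mice is not stated in the labels, and a p-value here covers only the spread between samples, which may be technical.

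In each S phase the origin recognition complex, with Cdc6 and Cdt1, loads the Mcm2 to Mcm7 ring onto DNA, and Cdc45 and the GINS complex then bind the ring and turn it into an active helicase. Polymerase alpha with primase starts each strand, the clamp Pcna holds polymerases delta and epsilon on the template, and CAF-1 deposits new histones behind the fork. Many of these genes are known targets of E2F transcription factors and are transcribed as cells leave G1.

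Between 20.5% and 26.2% of all probes were above background on an array (a deposited detection p under 0.05), and 45 to 50 of the 83 replication probes. Detection p-values of the single Itgb3 probe ran between 0.324 and 0.912, none above background, so neither the knockdown nor the labels could be checked from it. Of the 4 genes of the sort gate, Cd34 was not tested. Fcgr2b rose in knockdown over control (0.51 on the log2 scale, adjusted p = 0.0181 with limma), Fcgr3 was at 0.43 (0.0691) and Kit at -0.29 (0.243). Fcgr3 rose with Itgb3-20 (1.04, adjusted p = 0.00427) and differed between Itgb3-20 and Itgb3-17 (1.22, 0.0106). Of the 3 tested genes of the leukaemia programme, Hoxa9 fell (-0.81, adjusted p = 0.0222). By hairpin, 0 of the 3 were called lower with Itgb3-17 (lowest -0.44) and 1 with Itgb3-20 (-1.19). Genes of other marker lists moved beside the members. The summed log2 level of 12 granulocyte genes was 100.4 to 106.8 on the knockdown arrays and 97.1 to 98.3 on the control arrays. Of the 10 tested, 5 were higher and 0 lower (Mmp8 was not above background on any array). With Itgb3-17, 3 were higher and 2 had differences below 0. With Itgb3-20, 6 were higher. Among all genes 7.53% and 6.26% were higher with these hairpins. Between Itgb3-20 and Itgb3-17, 2 granulocyte genes were higher, against 0.330% of all genes. For 6 monocyte and macrophage genes the sum was 34.0 to 36.5 on the knockdown arrays and 33.5 to 34.0 on the control arrays, with 2 of 4 tested genes higher and 0 lower (Ccr2 was not above background on any array). These were Lyz1 (1.58, adjusted p = 3.83e-05) and Lyz2 (0.46, 0.0458), which were also higher with Itgb3-20 than with Itgb3-17 (0.94 and 1.14, adjusted p = 0.0302 and 0.0111). The other 2 tested genes of this list had differences below 0. With Itgb3-17 alone 1 of the 4 was higher and 3 had differences below 0. The sum over 18 genes of mitosis was 114.6 to 118.3 on the knockdown arrays and 117.8 to 119.3 on the control arrays. Of its 12 tested genes 0 were higher and 4 lower. By hairpin, 4 were lower with Itgb3-17 and 1 with Itgb3-20, against 6.34% and 5.28% of all genes. Beside the counts over both hairpins, 9.46% of all genes tested were higher and 8.25% lower. The 5 erythroid genes and 6 of the 7 T and NK cell genes with a probe were not above background on any array. Of 4 B cell genes 2 were above it on some array, and of 4 megakaryocyte genes 3, with 0 of the latter tested. In knockdown over control 1 of the 2 tested B cell probes, both of 1 gene, was called lower, against 7.84% of all probes. The brighter probe of that gene was not called. The part of granulocyte, monocyte and mitotic content, and of the gate genes, in the results on the members was not tested. In bulk RNA of this kind, fewer cells of a type and less RNA per cell cannot be told apart.

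The promoters of the members that moved most are shown first, because the E2F family binds short elements in many replication promoters. The sequences are RefSeq windows of the GRCm38.p6 build, with 250 bases before and 50 after the gene's start, written 5′ to 3′ along the gene. Windows of 300 bases are given for Mcm5 and Chaf1b, which had the largest rises among the member genes, and for Rpa3, which had the second largest fall. Gins1, with the largest fall, is named only. Capitals mark the letters TTTCCCGC, TTTGGCGC, TTTCGCGC or TTTGCCGC on either strand, a usual spelling of the E2F element. The windows lie at chr8:75109259-75109558 on the plus strand for Mcm5, chr16:93883651-93883950 on the plus strand for Chaf1b and chr6:8259092-8259391 on the minus strand for Rpa3.
Mcm5: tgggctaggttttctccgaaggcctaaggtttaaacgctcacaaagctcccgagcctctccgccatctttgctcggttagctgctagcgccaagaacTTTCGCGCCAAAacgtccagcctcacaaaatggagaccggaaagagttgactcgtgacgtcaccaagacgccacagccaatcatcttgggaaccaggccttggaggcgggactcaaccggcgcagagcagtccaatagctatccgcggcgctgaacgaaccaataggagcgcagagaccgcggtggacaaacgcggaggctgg
Chaf1b: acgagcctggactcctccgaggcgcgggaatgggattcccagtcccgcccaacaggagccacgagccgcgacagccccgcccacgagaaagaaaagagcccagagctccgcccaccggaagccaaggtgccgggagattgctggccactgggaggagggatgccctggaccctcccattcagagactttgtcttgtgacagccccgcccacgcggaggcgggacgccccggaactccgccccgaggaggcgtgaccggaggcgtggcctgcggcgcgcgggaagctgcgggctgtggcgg
Rpa3: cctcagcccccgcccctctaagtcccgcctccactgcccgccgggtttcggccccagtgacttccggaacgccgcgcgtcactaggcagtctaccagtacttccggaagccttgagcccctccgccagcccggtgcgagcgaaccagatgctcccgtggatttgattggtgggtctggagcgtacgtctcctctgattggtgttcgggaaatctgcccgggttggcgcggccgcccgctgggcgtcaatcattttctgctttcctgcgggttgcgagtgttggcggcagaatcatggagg

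The Mcm5 window holds 2 overlapping matches, TTTCGCGC on the plus strand of the gene and TTTGGCGC on the other, beginning at positions -153 and -149 relative to the start. The Chaf1b and Rpa3 windows hold 0 matches. Of the 48 members, 39 had a window in the RefSeq table, and 15 of these (38.5%) held at least 1 match, against 704 of the 27025 genes with a window (2.6%). By window rather than gene, 31.2% of 48 member windows and 2.26% of all 32851 windows held a match. The same letters stood in 2 of the 3 members that rose (Mcm5 and Uhrf1) and in 1 of the 4 members that fell and had a window (Mcm7). A gene was counted where any of its windows held a match, and Uhrf1 and Mcm7 each also had a window with 0 matches. Shorter stretches around the matches, with up to 16 bases on each side and fewer where the window ends, are shown for Mcm3, Mcm6 and Mcm7 of the helicase ring, for Cdc6 and Cdt1, which load the ring, and for Uhrf1. They were chosen after the matches had been seen. On GRCm38.p6 they lie at chr1:20820263-20820309 (minus strand, Mcm3), chr1:128359729-128359831 (minus, Mcm6), chr5:138171844-138172064 (minus, Mcm7), chr11:98907997-98908036 (plus, Cdc6), chr8:122568031-122568064 (plus, Cdt1) and chr17:56304112-56304151 (plus, Uhrf1).
Mcm3: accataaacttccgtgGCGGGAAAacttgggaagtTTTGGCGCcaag
Mcm6: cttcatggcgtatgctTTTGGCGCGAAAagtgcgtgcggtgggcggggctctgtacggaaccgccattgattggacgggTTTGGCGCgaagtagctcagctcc
Mcm7: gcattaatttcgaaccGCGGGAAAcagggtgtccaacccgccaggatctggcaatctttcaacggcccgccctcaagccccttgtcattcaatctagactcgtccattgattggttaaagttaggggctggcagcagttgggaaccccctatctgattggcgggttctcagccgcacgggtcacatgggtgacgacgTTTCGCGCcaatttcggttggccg
Cdc6: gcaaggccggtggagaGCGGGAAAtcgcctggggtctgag
Cdt1: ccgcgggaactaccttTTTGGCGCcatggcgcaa
Uhrf1: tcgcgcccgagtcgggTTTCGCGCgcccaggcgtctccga

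Of the 15 members with a match, Mcm5 and Uhrf1 rose and Mcm7 fell on the arrays, the fall of Mcm7 being lost when any of several single arrays was left out. Mcm3, Mcm6, Cdc6, Cdt1, Lig1, Orc3 and Pold1 did not pass the test, and Gins3, Orc1, Pola1, Pole2 and Rfc3 had no tested probe.

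Knockdown against control moved the replication genes both ways. The comparison is the mean of the Itgb3-17 and Itgb3-20 groups less that of Luc control, on the log2 scale, tested with limma, and a gene is called at a Benjamini-Hochberg adjusted p under 0.05 over all 13315 probes tested. A probe was tested where it was above background on at least 2 arrays, which held for 53 of the 83 member probes and for 37 of the 48 genes, and the brightest probe stood for a gene with several. Of the 37 genes, 3 rose (Mcm5, Chaf1b and Uhrf1), 7 fell (Mcm7, Gins1, Gins2, Cdc45, Pcna, Rpa3 and Prim2) and 27 did not pass. Among all genes tested the share that rose was 9.46% and the share that fell was 8.25%, so 8.11% of members higher is near the background, and 18.9% lower is above it. The median difference of the 37 genes was -0.118, against 0.0210 over all genes. Counting probes, 5 of 53 rose and 9 fell, with 8.93% and 7.84% as the shares over all probes.

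**Figure D1:**
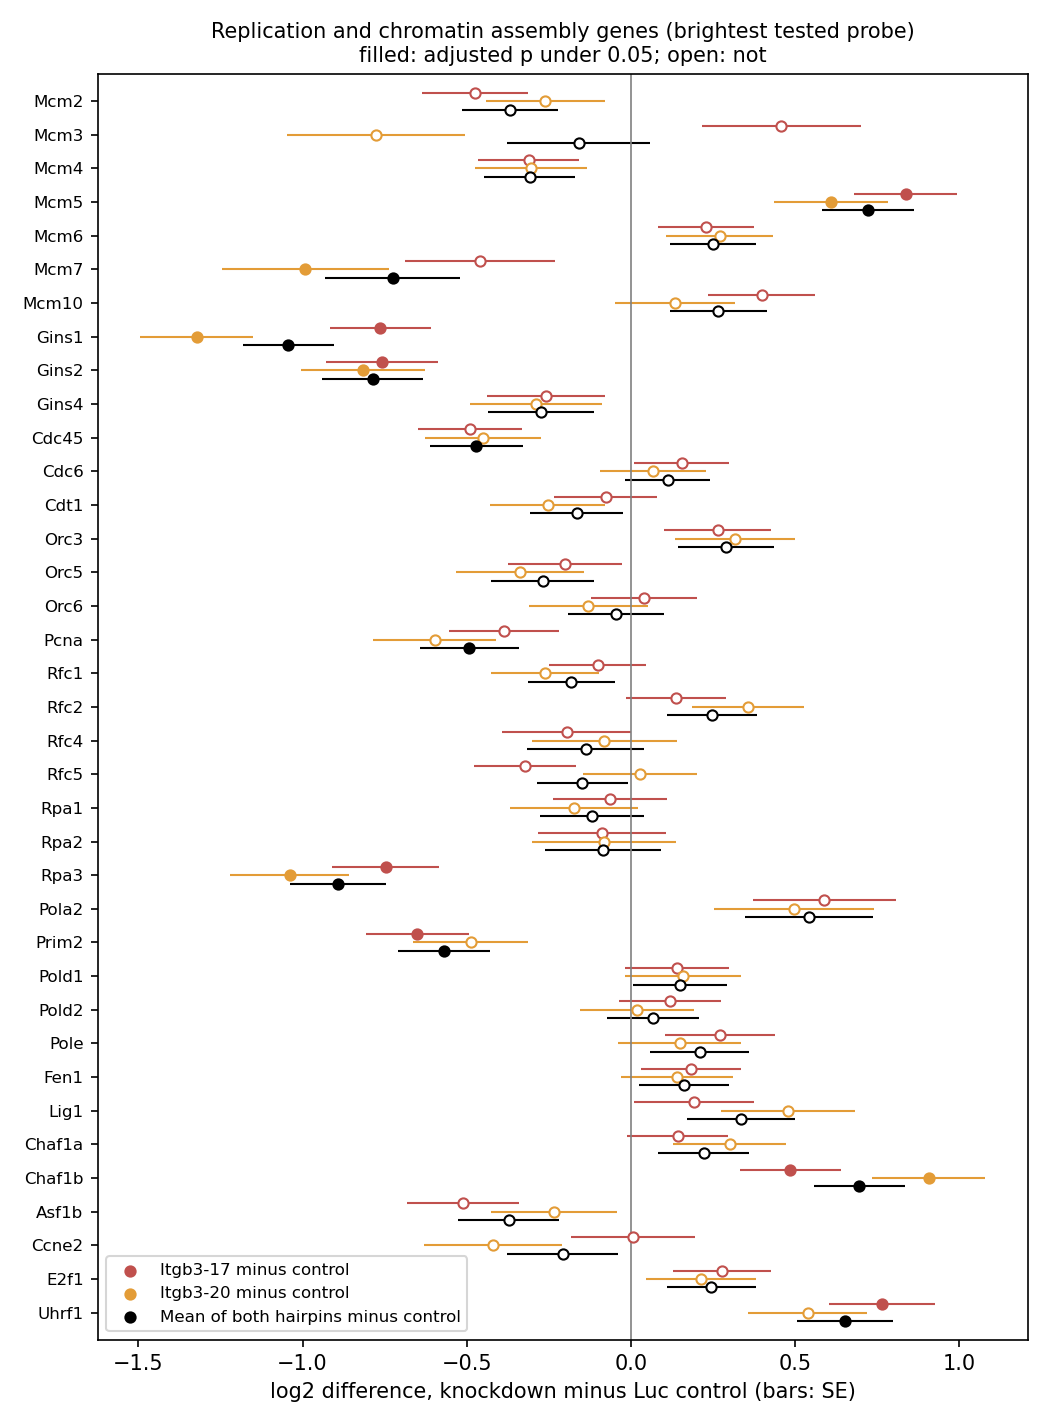
Log2 difference from Luc control for the 37 member genes with a tested probe, ordered by role, with 1 point each for Itgb3-17, Itgb3-20 and the mean of both hairpins. Bars are standard errors and filled points passed an adjusted p of 0.05. The helicase activators Gins1, Gins2 and Cdc45 lie left of 0 with both hairpins, and Mcm5, Chaf1b and Uhrf1 lie right of 0 with both.

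Most of these falls ended under 1 other scaling of the arrays, and the rises over both hairpins did not. Arrays scaled to a common median over all 45281 probes, in place of quantile normalization, left 1 member gene lower (Gins1, -0.71, adjusted p = 0.0461), while Mcm5, Chaf1b and Uhrf1 stayed higher (1.05, 1.01 and 0.94). In that setting 94.4% of all calls on the array were rises, against 53.2% in the main one, and the median difference over all genes was 0.166. The members' median was 0.169 there, beside that 0.166, so the set no longer lay below the other genes. With Itgb3-20 alone, Mcm5 and Chaf1b were not called there (adjusted p = 0.0975 and 0.0502 with limma). A common median over the tested probes alone gave 60.3% of calls as rises and a members' median of -0.0300, beside -0.0326 over all genes. Under it Gins1, Rpa3, Gins2, Pcna and Mcm7 stayed lower (adjusted p from 0.000436 to 0.0224 with limma). Cdc45 (0.162) and Prim2 (0.0818) were not called, and the rises of Mcm5, Chaf1b and Uhrf1 were kept.

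The helicase activators had the most falls of the role groups: 3 of 5 tested genes fell (60.0%, where 8.25% of all genes did), 0 rose, and the median of the 5 was -0.47, against 0.0210 over all genes. Gins1 is a subunit of the GINS complex, which joins Cdc45 to the Mcm ring. Its log2 level was 6.39, 6.26 and 6.23 on the Itgb3-17 arrays, 5.66 and 5.81 on the Itgb3-20 arrays, and 6.93, 7.23 and 7.01 on the control arrays. The groups did not overlap, and the Itgb3-20 arrays were the lowest. Gins1 averaged 6.29 ± 0.09 (SD, n = 3) with Itgb3-17, 5.73 ± 0.11 (SD, n = 2) with Itgb3-20 and 7.06 ± 0.15 (SD, n = 3) in control. It was 2.06-fold lower in knockdown (-1.04 ± 0.139, SE, adjusted p = 0.000363), with -0.76 for Itgb3-17 (adjusted p = 0.00484) and -1.32 for Itgb3-20 (0.000574). The fall is measured after normalization. In the signals as deposited Gins1 read 191, 139 and 181 with Itgb3-17, 126 and 145 with Itgb3-20 and 176, 212 and 199 in control, where 2 of the Itgb3-17 arrays lay inside the control range.

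Gins2, another GINS subunit, stood at 5.66, 5.58 and 5.48 with Itgb3-17, 5.72 and 5.30 with Itgb3-20 and 6.51, 6.09 and 6.39 in control. Every knockdown array lay below every control. The difference was -0.79 ± 0.153 (SE, adjusted p = 0.00295, 1.73-fold lower), -0.76 with Itgb3-17 (0.00866) and -0.82 with Itgb3-20 (0.0126). The dimmer tested probes of Gins2 did not repeat it, at 0.10 (adjusted p = 0.716) and -0.17 (0.559). Cdc45, which completes the active helicase, was at 7.55, 7.43 and 7.44 with Itgb3-17, 7.34 and 7.69 with Itgb3-20 and 7.81, 7.998 and 8.08 in control. These groups were also separate, by a smaller gap (-0.47 ± 0.143, SE, adjusted p = 0.0331, 1.39-fold lower). The Cdc45 call ended without Luc control replicate 2 (adjusted p = 0.0951) or 3 (0.109), Itgb3-17 replicate 1 (0.0573), 2 (0.0666) or 3 (0.0652), or Itgb3-20 replicate 4 (0.107), and neither hairpin passed alone (adjusted p = 0.0524 and 0.116). Wherever an Itgb3-20 array is left out, the lone array of that hairpin is assumed to vary like the other groups, which supply the spread. In the signals as deposited, Gins2 and Cdc45 overlapped between knockdown and control arrays. Gins4 had a difference of -0.27 (adjusted p = 0.281), and Gins3 had no tested probe.

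Mcm10, which acts with Cdc45 as the fork starts, had 3 tested probes that differed. The brightest was at 0.27 (adjusted p = 0.243) and stands for the gene in the counts. The next had a difference of -0.72 ± 0.169 (SE, adjusted p = 0.00836), with 6.65, 6.34 and 6.82 on the Itgb3-17 arrays, 5.90 and 6.53 on the Itgb3-20 arrays and 7.20, 7.19 and 7.001 on the control arrays. For this probe the knockdown arrays all lay below the controls. The dimmest probe was at 0.10 (adjusted p = 0.707), and was not above background on any control array.

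The helicase ring itself did not move as a unit. Mcm5 rose, Mcm7 fell, and Mcm2, Mcm3, Mcm4 and Mcm6 did not pass. Mcm5 was at 10.15, 10.29 and 10.07 with Itgb3-17, 9.98 and 9.91 with Itgb3-20 and 9.24, 9.23 and 9.53 in control. The lowest knockdown array lay above the highest control. Mcm5 averaged 10.17 ± 0.11 (SD, n = 3) with Itgb3-17, 9.94 ± 0.05 (SD, n = 2) with Itgb3-20 and 9.33 ± 0.17 (SD, n = 3) in control. It was 1.65-fold higher in knockdown (0.72 ± 0.14, SE, adjusted p = 0.00292), by 0.84 with Itgb3-17 (0.00307) and by 0.61 with Itgb3-20 (0.0339). The signals as deposited were also separate, at 1609, 1140 and 1456 with Itgb3-17, 961 and 1168 with Itgb3-20 and 541, 591 and 791 in control.

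Mcm7 lay near the lower end of the detected range. Its brighter probe was at 5.44, 5.76 and 5.04 with Itgb3-17, 4.83 and 4.93 with Itgb3-20 and 6.17, 5.30 and 6.15 in control, and the groups overlapped at Luc control replicate 2. Mcm7 was 1.65-fold lower (-0.73 ± 0.206, SE, adjusted p = 0.0237), with -0.46 for Itgb3-17 (0.208) and -0.99 for Itgb3-20 (0.0212). The call ended without Luc control replicate 1 (adjusted p = 0.115) or 3 (0.113), Itgb3-17 replicate 3 (0.0555) or Itgb3-20 replicate 4 (0.0527). Its other tested probe was at -0.06 (adjusted p = 0.882).

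The remaining ring subunits gave values without a call in the main setting. Mcm2 was at 7.82, 7.90 and 7.71 with Itgb3-17, 8.24 and 7.80 with Itgb3-20 and 8.38, 8.32 and 8.15 in control (-0.37, adjusted p = 0.0999). Mcm4 lay at 9.32 to 9.67 on the knockdown arrays and 9.80 to 9.84 on the control arrays, with no overlap (-0.31, adjusted p = 0.146). Under the median over all probes the Mcm4 difference was -0.01 and the groups overlapped. With limma Mcm4 was called lower with no background correction (adjusted p = 0.0165) and the authors' values (0.0239). Mcm2 was called lower in both settings (0.0294 and 0.0243) and with trend and robust moderation (0.049). It was not called under the median over all probes (0.838) or over the tested probes (0.262). Mcm6 was called higher with no background correction (0.0220). The brightest Mcm6 probe lay at 8.01 to 8.18 on the knockdown arrays and 7.86 to 7.90 on the control arrays (0.25, adjusted p = 0.218), and its other tested probes were at -0.11 and 0.27 (0.683 and 0.361). Mcm3 was the member whose hairpins differed most. It stood at 7.12, 6.82 and 6.89 with Itgb3-17, 5.08 and 6.33 with Itgb3-20 and 6.73, 6.41 and 6.31 in control. The mean of both hairpins was -0.16 from control (adjusted p = 0.676), with 0.46 for Itgb3-17 (0.240) and -0.78 for Itgb3-20 (0.0783).

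**Figure D2:**
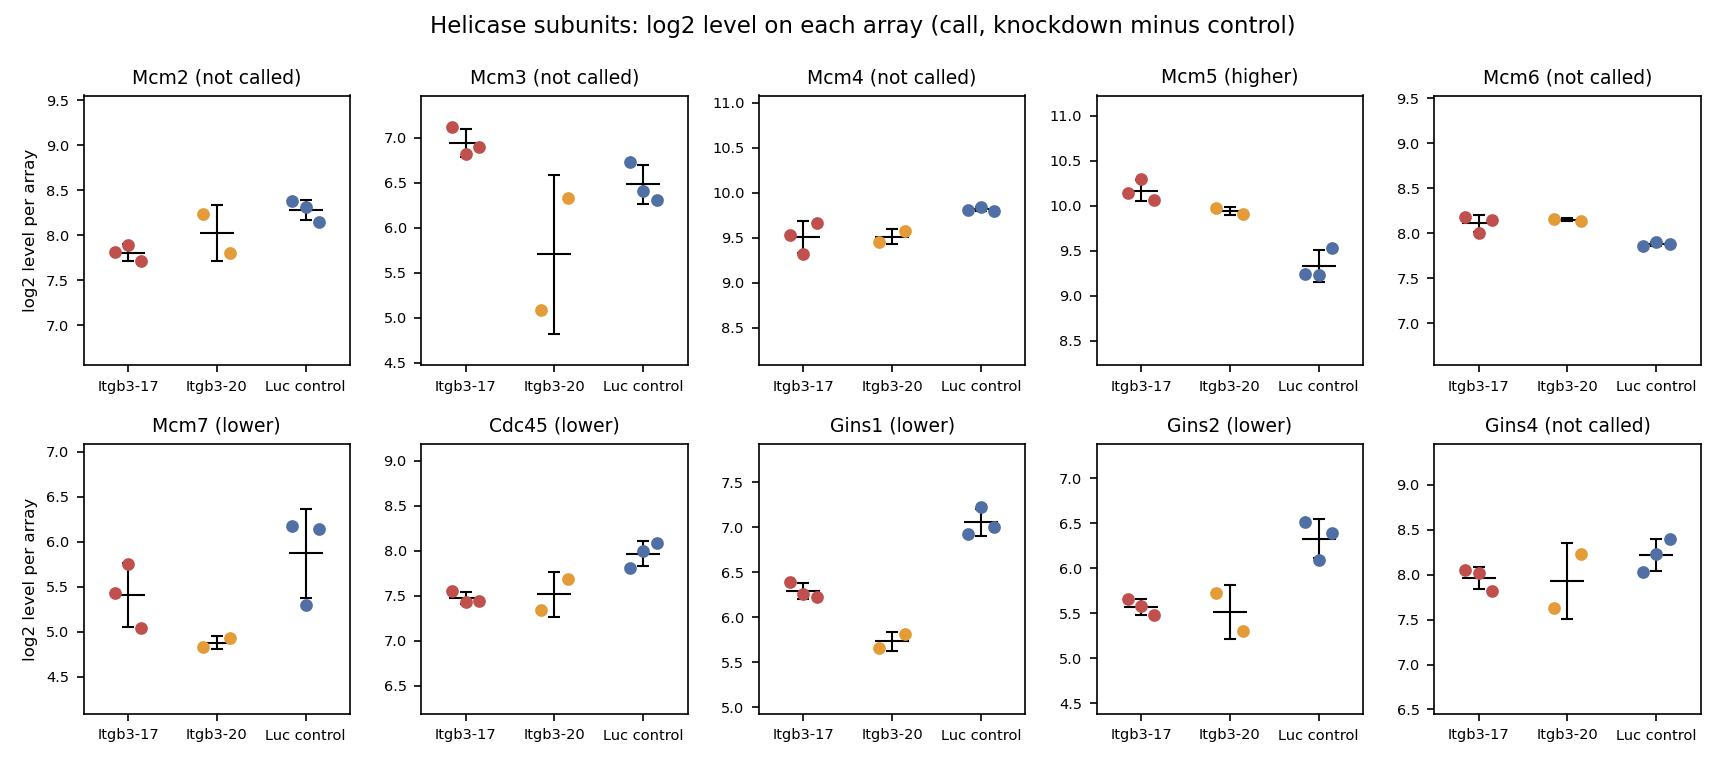
Log2 level of the 6 ring subunits, Cdc45 and 3 GINS subunits on each array, with the mean and SD of each group. The panels of Gins1, Gins2 and Cdc45 show all 5 knockdown arrays below the 3 controls, that of Mcm5 shows all 5 above them, and that of Mcm3 shows the Itgb3-20 arrays at 5.08 and 6.33.

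Origin recognition and licensing genes gave 0 calls with limma. Of the 6 Orc genes 3 were tested, with differences of 0.29 for Orc3 (adjusted p = 0.198), -0.27 for Orc5 (0.273) and -0.04 for Orc6 (0.881), and 0 of them reached an unadjusted p under 0.05. Cdc6, the ATPase that helps load the ring, was above background on 2 of the 8 arrays and had a difference of 0.11 (adjusted p = 0.614). Cdt1, its loading partner, was at 6.83 ± 0.03 (SD, n = 3) with Itgb3-17, 6.65 ± 0.25 (SD, n = 2) with Itgb3-20 and 6.91 ± 0.13 (SD, n = 3) in control (-0.16, adjusted p = 0.476). Geminin (Gmnn), the inhibitor of Cdt1, and Orc1, Orc2 and Orc4 had no tested probe.

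Among the proteins that hold single-stranded DNA open, Rpa3 fell and its partners in the RPA trimer did not pass. Rpa3 was at 7.88, 7.76 and 7.98 with Itgb3-17, 7.41 and 7.75 with Itgb3-20 and 8.65, 8.78 and 8.44 in control. All knockdown arrays lay below all controls. It was 1.86-fold lower (-0.89 ± 0.147, SE, adjusted p = 0.00109), with -0.75 for Itgb3-17 (0.00745) and -1.04 for Itgb3-20 (0.00312). The deposited signals overlapped, at 400, 254 and 424 with Itgb3-17, 221 and 324 with Itgb3-20 and 395, 461 and 412 in control, and the call ended under the median over all probes (-0.61, adjusted p = 0.113). Rpa1 was at 9.36 ± 0.29 (SD, n = 3) with Itgb3-17, 9.25 ± 0.12 (SD, n = 2) with Itgb3-20 and 9.42 ± 0.18 (SD, n = 3) in control (-0.12, adjusted p = 0.664). Rpa2 had a difference of -0.09 (adjusted p = 0.796).

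The sliding clamp Pcna was barely above background. Its log2 level was 4.54, 4.69 and 4.28 with Itgb3-17, 4.27 and 4.32 with Itgb3-20 and 4.65, 5.06 and 4.98 in control. It passed detection on 1 of 3, 0 of 2 and 2 of 3 arrays of these groups. One Itgb3-17 array lay just above the lowest control. The call was lower (-0.49 ± 0.151, SE, adjusted p = 0.0351). Because Pcna was not above background on either Itgb3-20 array, the Itgb3-20 level is a bound. Against control it was at least 1.17-fold lower, measured from the lowest signal above background, and the fitted test of that difference gave an adjusted p of 0.0517. The call for both hairpins ended without Luc control replicate 2 (adjusted p = 0.142) or 3 (0.104), Itgb3-17 replicate 1 (0.0657) or 3 (0.0814), or Itgb3-20 replicate 4 (0.0721).

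Rfc2, a subunit of the loader that opens the clamp, had 4 tested probes, all annotated to the same gene symbol, and they did not move together. The brightest, which stands for the gene, was at 0.25 (adjusted p = 0.247). The next rose by 0.67 (SE 0.175, adjusted p = 0.0155), with 7.62, 7.84 and 7.61 on the Itgb3-17 arrays, 7.38 and 7.94 on the Itgb3-20 arrays and 6.92, 6.72 and 7.37 on the control arrays. Another fell, with a difference of -0.95 ± 0.195 (SE, adjusted p = 0.00412), with 6.32, 5.95 and 6.33 on the Itgb3-17 arrays, 5.56 and 6.34 on the Itgb3-20 arrays and 7.40, 6.75 and 6.91 on the control arrays. For both of these probes the knockdown and control arrays were separate. The dimmest rose by 0.67 (SE 0.148, adjusted p = 0.00623), with 6.31, 6.51 and 6.74 on the Itgb3-17 arrays, 6.91 and 6.71 on the Itgb3-20 arrays and 6.04, 5.84 and 6.12 on the control arrays. Leaving out Luc control replicate 1 (adjusted p = 0.0559) or 2 (0.0924) ended the call of the brighter rising probe. No single direction of Rfc2 can be read from these values, and the probes were not placed on its transcripts. The other loader subunits Rfc1, Rfc4 and Rfc5 were at -0.18, -0.14 and -0.15 (adjusted p = 0.393, 0.654 and 0.523).

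**Figure D3:**
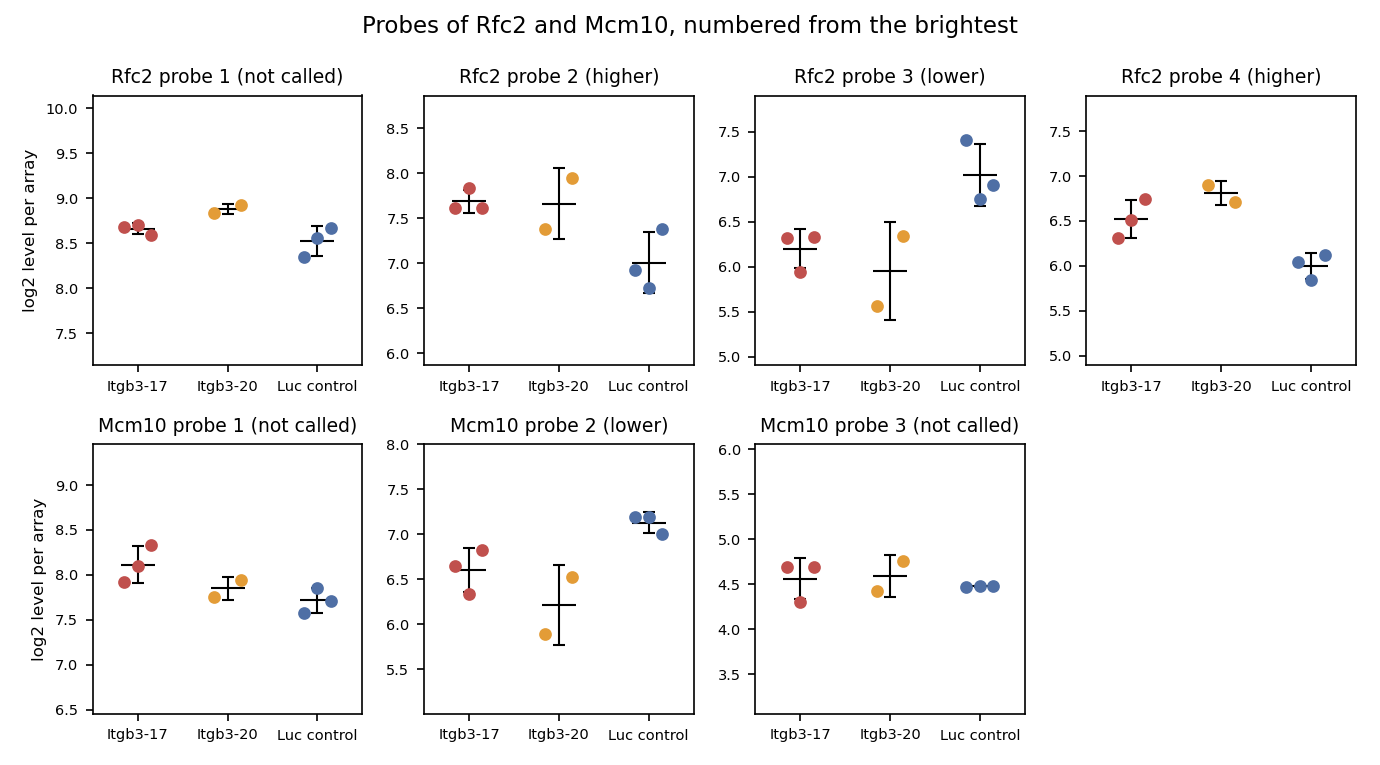
Log2 level on each array for the 4 tested probes of Rfc2 and the 3 of Mcm10, numbered from the brightest. Called probes of Rfc2 lie on both sides of control (0.67, -0.95 and 0.67), and of the Mcm10 probes only the second was called (-0.72).

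Probes of a single gene disagreed elsewhere too. The 10 members with several tested probes gave 23 pairs, of which 13 had the same sign. In 3 pairs both probes were called, all of them in Rfc2, and 2 of these 3 were called in opposite directions. With the mean of a gene's tested probes in place of the brightest, 4 member genes fell instead of 7. The 18.9% of members lower therefore holds for the brightest probe of each gene. The share of all genes that fell with the mean of their probes is not given here.

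Of the polymerases, Prim2, the large subunit of primase, fell, and the other 4 tested genes did not pass. Prim2 was at 5.74, 5.77 and 5.85 with Itgb3-17, 5.79 and 6.11 with Itgb3-20 and 6.32, 6.59 and 6.41 in control, with no overlap. The deposited signals of Prim2 overlapped. It was 1.48-fold lower (-0.57 ± 0.141, SE, adjusted p = 0.0117), with -0.65 for Itgb3-17 (0.0124) and -0.49 for Itgb3-20 (0.0868). The call ended without Luc control replicate 2 (-0.49, adjusted p = 0.0607) and under both median scalings (0.554 over all probes and 0.0818 over the tested ones), and the dimmer probe of Prim2 was at 0.17 (0.568). Pola2, the regulatory subunit of polymerase alpha, was at 5.81, 5.36 and 5.79 with Itgb3-17, 5.72 and 5.40 with Itgb3-20 and 5.61, 4.85 and 4.72 in control. Its difference of 0.54 (adjusted p = 0.0692) passed without Luc control replicate 1, the highest control (0.82, adjusted p = 0.00925), without Itgb3-20 replicate 5 (0.62, 0.0471) and under both median scalings (0.0477 over all probes and 0.0376 over the tested ones). The catalytic and second subunits of polymerase delta, Pold1 and Pold2, were at 0.15 and 0.07 (adjusted p = 0.525 and 0.791), and Pole, the catalytic subunit of polymerase epsilon, was at 0.21 (0.384).

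Neither gene of lagging-strand joining passed. Fen1, the nuclease that trims flaps, was at 8.78 ± 0.10 (SD, n = 3) with Itgb3-17, 8.74 ± 0.12 (SD, n = 2) with Itgb3-20 and 8.60 ± 0.10 (SD, n = 3) in control (0.16, adjusted p = 0.466). The brightest probe of the ligase Lig1 was at 6.21, 5.97 and 5.85 with Itgb3-17, 6.64 and 5.96 with Itgb3-20 and 5.86, 5.79 and 5.80 in control. Its difference was 0.34 (adjusted p = 0.184), and 0.51 (0.0281) without Itgb3-20 replicate 5.

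Both rises outside the helicase were in chromatin assembly, where 2 of 4 tested genes rose and 0 fell. Over all genes 9.46% rose and 8.25% fell, and the 3 rises in the whole set are near that share. Chaf1b is the middle subunit of CAF-1, the chaperone that Pcna recruits to deposit histones on new DNA. It was at 7.40, 7.42 and 7.48 with Itgb3-17, 7.84 and 7.87 with Itgb3-20 and 7.13, 6.75 and 6.96 in control. The groups did not overlap, and the Itgb3-20 arrays were the highest. Chaf1b was 1.62-fold higher (0.70 ± 0.139, SE, adjusted p = 0.00345), by 0.49 with Itgb3-17 (0.0486) and by 0.91 with Itgb3-20 (0.00469). The large CAF-1 subunit Chaf1a was at 7.85 ± 0.09 (SD, n = 3) with Itgb3-17, 8.01 ± 0.22 (SD, n = 2) with Itgb3-20 and 7.71 ± 0.07 (SD, n = 3) in control, a difference of 0.22 (adjusted p = 0.311).

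Uhrf1, which reads hemimethylated DNA behind the fork and brings in the maintenance methyltransferase, was at 9.002, 8.91 and 8.76 with Itgb3-17, 8.83 and 8.50 with Itgb3-20 and 8.13, 8.29 and 7.96 in control. Every knockdown array lay above every control. It was 1.57-fold higher (0.65 ± 0.146, SE, adjusted p = 0.00646), by 0.77 with Itgb3-17 (0.0063) and by 0.54 with Itgb3-20 (0.0676). The histone chaperone Asf1b was at 4.38 to 4.97 on the knockdown arrays and 4.95 to 5.30 on the control arrays, with an overlap at the top of the knockdown range (-0.37, adjusted p = 0.114). Slbp, which binds the stem-loop of histone messages, had no tested probe.

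**Figure D4:**
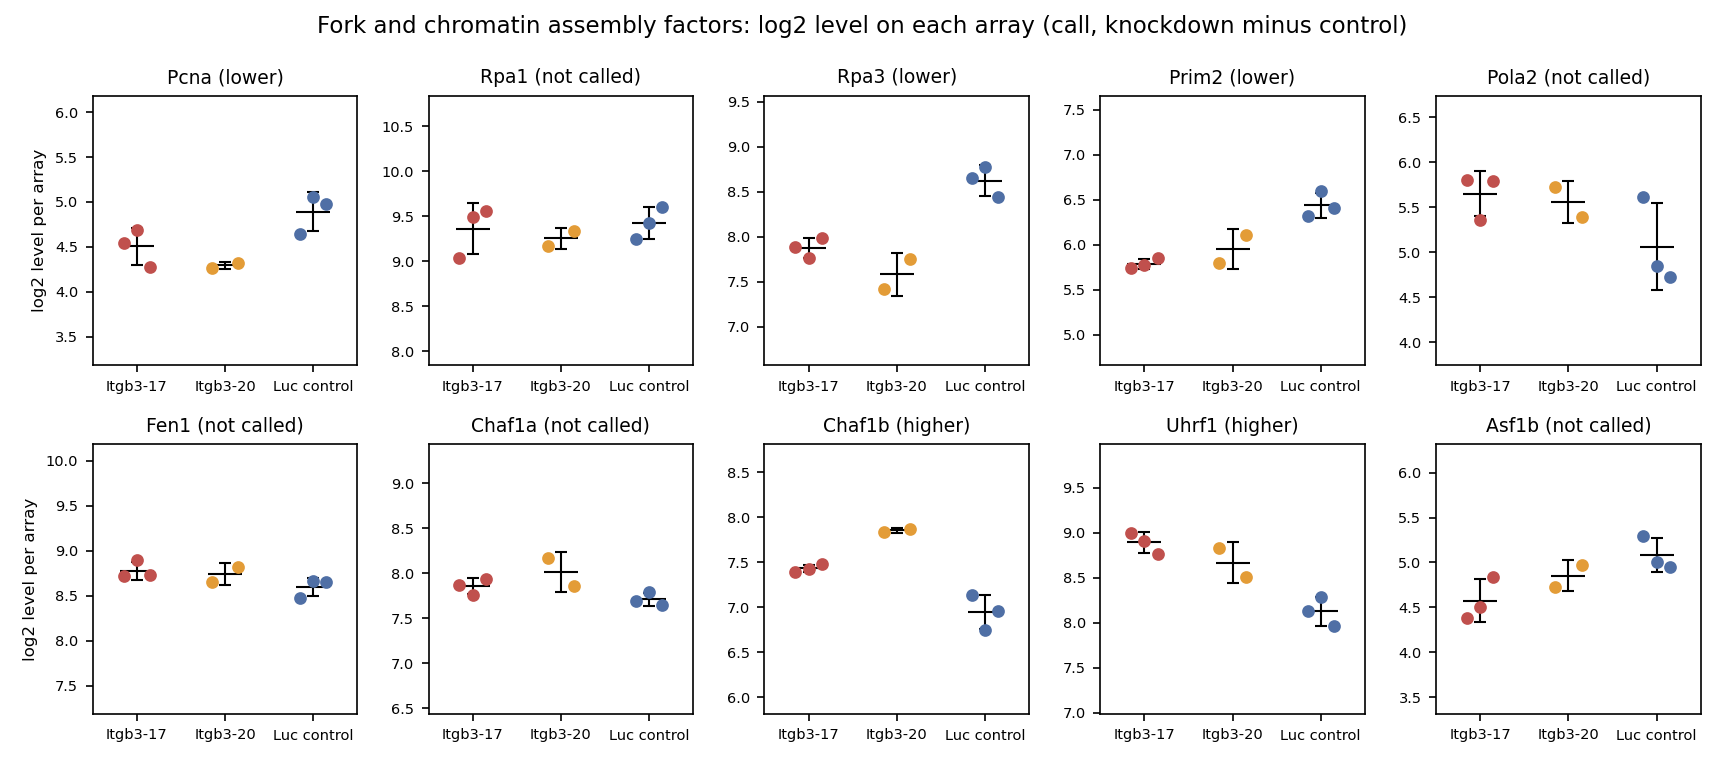
Log2 level on each array for Pcna, Rpa1, Rpa3, Prim2, Pola2, Fen1, Chaf1a, Chaf1b, Uhrf1 and Asf1b, with the mean and SD of each group. Rpa3 and Prim2 lie below control on all 5 knockdown arrays, and Chaf1b and Uhrf1 lie above it.

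The G1/S regulators in the set did not pass. E2f1, the transcription factor for many of these promoters, was at 6.99, 6.94 and 6.84 with Itgb3-17, 6.80 and 6.93 with Itgb3-20 and 6.77, 6.60 and 6.57 in control. The arrays were separate, with all 5 knockdown arrays higher, and the difference was 0.25 (SE 0.135, adjusted p = 0.242). Ccne2, a cyclin of Cdk2, had a difference of -0.21 (adjusted p = 0.449), and Ccne1 was not tested.

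Arrays that did not overlap were counted over the whole set. For 7 of the 53 tested member probes (13.2%) every knockdown array was higher than every control, and for 8 (15.1%) every one was lower. Over all tested probes these shares were 11.5% and 8.87%. With the median over all probes, each of these 8 lower probes overlapped the controls. They belong to Gins1, Gins2, Cdc45, Rpa3, Prim2, Mcm4, Mcm10 and Rfc2. Of the 7 higher probes, that of Mcm6 and the brighter rising one of Rfc2 overlapped there, and the others stayed above. The shares over all probes in that setting are not given here.

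Each hairpin was also set against the same 3 control arrays, which they share. With Itgb3-17, 3 member genes rose and 4 fell, 8.11% and 10.8%, against 7.53% and 6.34% of all genes. By probe, 5 rose and 5 fell, where the shares over all probes were 7.22% and 5.69%. With Itgb3-20, 2 rose and 4 fell, 5.41% and 10.8%, against 6.26% and 5.28% of all genes. By probe, 3 rose and 6 fell, where 5.71% and 5.27% of all probes did. Mcm5, Chaf1b, Gins1, Gins2 and Rpa3 were called with each hairpin. Uhrf1 and Prim2 were called with Itgb3-17 and not Itgb3-20, and Mcm7 with Itgb3-20 and not Itgb3-17. Gins1 and Rpa3 with each hairpin, Gins2, Mcm5 and Uhrf1 with Itgb3-17, and Chaf1b with Itgb3-20 kept their calls whichever array was left out. With Itgb3-17, dropping Luc control replicate 2 (adjusted p = 0.167) or 3 (0.0851), or any array of that hairpin (0.124 to 0.135), ended the call of Chaf1b. The rise of Mcm5 with Itgb3-20 missed the threshold when Luc control replicate 1 (0.0827) or 2 (0.0933) was dropped, when Itgb3-17 replicate 1 (0.0579) or 3 (0.0516) was, and with either Itgb3-20 array alone (0.169 without replicate 4 and 0.0646 without replicate 5, the spread again coming from the other groups). Leaving out Itgb3-20 replicate 5 ended the call of Gins2 with that hairpin (0.0881). The call of Prim2 with Itgb3-17 ended when Luc control replicate 2 (0.0544) was dropped, or replicate 1 (0.0644) or 2 (0.0528) of that hairpin. The call of Mcm7 with Itgb3-20 ended when Luc control replicate 1 (0.0643) or 3 (0.0686) was dropped, or replicate 4 of that hairpin (0.126), and Mcm7 was called with Itgb3-17 without Luc control replicate 2 (-0.75, 0.0373). Set directly against each other, Itgb3-20 and Itgb3-17 gave 0 member probes called with limma (1 gene higher and 2 lower at an unadjusted p under 0.05), where 0.330% of all genes were higher and 0.342% lower (0.248% and 0.285% of all probes), so no member was shown to differ between hairpins. The nearest was Mcm3 at -1.23 ± 0.271 (SE, adjusted p = 0.0566). It passed under 5 of the processing alternatives, with adjusted p from 0.0105 to 0.0481, and without Luc control replicate 1 (0.0409) or Itgb3-20 replicate 5 (-1.86, 0.00033), which leaves the single Itgb3-20 array at 5.08 with a spread taken from the other groups.

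Neighbouring genes of the same pathways were read from 3 further lists. Of 27 tested origin and fork factors outside the set, 4 rose and 3 fell (14.8% and 11.1%, against 9.46% and 8.25% of all genes), with a median of -0.0303. Lrwd1, which binds the origin recognition complex, rose by 0.94 (adjusted p = 0.00111), Recql4, a helicase needed for origin firing, by 0.85 (0.00471) and Wdhd1, which ties the helicase to polymerase alpha, by 0.65 (0.00956). Mcmbp, a binding partner of the Mcm proteins, was at -0.69 (adjusted p = 0.00691). For these 4 genes the knockdown arrays lay on a single side of the controls, and only Mcmbp lost its call under the median over all probes (0.413). The Wdhd1 call ended without Luc control replicate 2 (0.059). The other calls, outside the 4 of lowest p, were Rnaseh2a (0.69), Pold4 (-0.56) and Tipin (-0.54), of which Pold4 and Tipin were not called under the median over all probes (-0.24 and -0.26).

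Of 19 tested chromatin assembly and histone supply genes outside the set, 3 rose and 3 fell (15.8% each, against 9.46% and 8.25% of all genes). Supt16, a subunit of the histone chaperone FACT, had a log2 level of 8.39, 8.55 and 8.33 with Itgb3-17, 7.53 and 8.28 with Itgb3-20 and 9.45, 9.34 and 9.20 in control (-1.17 ± 0.167, SE, adjusted p = 0.0005). Rbbp7, a histone-binding protein of several chromatin complexes, was at 7.06, 7.06 and 6.74 with Itgb3-17, 5.02 and 6.24 with Itgb3-20 and 8.13, 7.46 and 7.36 in control (-1.36 ± 0.237, SE, adjusted p = 0.00144). Both lay below control on all 5 knockdown arrays and kept their calls in all 17 alternatives. Those calls are over both hairpins. By hairpin with limma, Rbbp7 was not called with Itgb3-17 (-0.69, adjusted p = 0.0947) and was lower with Itgb3-20 (-2.02, 0.00106). Supt16 was lower with each (-0.91, 0.00538 and -1.43, 0.00106). Daxx, a chaperone of histone H3.3, was at 0.62 (adjusted p = 0.0132) and Nap1l4, a nucleosome assembly protein, at 0.52 (0.0149). The calls of Daxx and Nap1l4 ended without Luc control replicate 1 (0.071 and 0.0688). The remaining calls were Cdan1 (0.49) and Nap1l1 (-0.58). Under the median over all probes Nap1l1 was not called (-0.30), and Nap1l4 and Cdan1 were at 0.82 and 0.81.

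Of 25 tested G1/S regulators outside the set, 2 rose and 2 fell, 8.0% each and so near the 9.46% and 8.25% of all genes. Lin54, the DNA-binding subunit of the MuvB complex, was at -0.80 (adjusted p = 0.00218) and E2f2, an activating E2F, at -0.63 (0.0248). Both calls ended under the median over all probes (-0.48 and -0.32, adjusted p = 0.116 and 0.372). Mybl2, a MuvB partner, was at 0.50 (adjusted p = 0.0265) and Cdkn1a, the Cdk inhibitor p21, at 0.44 (0.0479), and the values were 0.82 and 0.75 under that scaling. Cdkn1a differed between hairpins. Its level was 8.03, 8.04 and 7.81 with Itgb3-17, 7.21 and 6.84 with Itgb3-20 and 7.12, 7.08 and 6.96 in control, a difference of -0.93 between Itgb3-20 and Itgb3-17 (adjusted p = 0.0302). That call ended without Itgb3-17 replicate 1 (0.133), 2 (0.136) or 3 (0.0844) or Itgb3-20 replicate 5 (0.0918), while Cdkn1a with Itgb3-17 against control (0.90, adjusted p = 0.0023) was kept in all 18 alternatives. The calls of E2f2, Mybl2 and Cdkn1a over both hairpins ended without any of several single arrays. For E2f2 these were replicates 2 and 3 of Luc control, replicate 1 of Itgb3-17 and replicate 5 of Itgb3-20, without which the adjusted p was 0.0578 to 0.0963. For Mybl2 they were replicates 1 and 3 of Luc control, replicate 1 of Itgb3-17 and replicate 4 of Itgb3-20 (0.065 to 0.114). The Cdkn1a call was kept without replicate 5 of Itgb3-20 and ended without each of the other arrays (0.0549 to 0.152).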

How the data were processed

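The 8 Illumina arrays were grouped from their titles. Per the file headers, the deposited signals are bead intensity averages on a linear scale without normalization, and beside each stands a detection p-value deposited by the authors. A further table of processed log2 values deposited by the authors has the same rank order within each array (Spearman 1) and a median of 6.61 in every column. Its method, centring and any offset are not given in the sources used here, and it served as an alternative only.

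Background was removed in R 4.3.3 with limma 3.58.1 by normexp, its negative controls being inferred from detection p, with an offset of 16, quantile normalization and log2 (neqc). Of 45281 probes, 13315 were tested, those detected (p under 0.05) on 2 or more arrays. Of all probes 34885 had 1 gene symbol in the array's annotation, 18 had several and 10378 had none. One limma model (lmFit and eBayes, two-sided) held the 3 groups, and both hairpins weighed equally in knockdown minus control. The Benjamini-Hochberg adjustment ran over those 13315 probes, and calls were made at 0.05. The median standard error of member probes was 0.148 on the log2 scale, which the number of arrays limits. The fit was tested on simulated arrays.

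Named were all members, with per-array values for those called in any of the 4 contrasts, and up to 4 called genes of lowest p in each further list. Exceptions (Fcgr2b, Fcgr3, Kit, Hoxa9, Lyz1, Lyz2, Mcm2, Mcm3, Pola2, Lig1, E2f1 and the calls outside those 4) were chosen after their values were seen. The members, their roles and the lists were chosen with earlier results of these data known. Same-numbered Itgb3-17 and control arrays did not deviate together (correlations 0.0279, -0.0240 and -0.00589), so the numbers were not used as pairs. Alternatives were 2 median scalings, no background correction, the authors' values, no filter, a stricter filter, trend and robust moderation, array weights, both hairpins as 1 group, a replicate block and leaving out each array. Promoter windows came from a RefSeq table (Python 3.11.15, pandas 2.3.3) and figures were drawn with matplotlib 3.10.9.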

Additional observations from a re-analysis of the deposited data

How the results depend on the processing

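No call of a member probe reversed under any alternative. Of 33 calls of member probes over the 4 comparisons, 33 were kept with the authors' values, 33 with trend and robust moderation, 32 with array weights, 32 of 32 with a stricter filter, 30 with no background correction, 30 with the median over the tested probes, 21 with no filter on dim probes and 11 with the median over all probes. The cause of these losses was not tested, except that no filter multiplies the probes tested. The share of all probes called moved too. For knockdown minus control, 7.84% were lower, 0.593% with the median over all probes and 1.43% with no filter. The share higher was 8.93%, and 9.13% with no background correction. With a Luc control or Itgb3-17 array left out, 5.43% to 7.68% were higher and 5.36% to 7.04% lower. For Itgb3-17, 5.69% were lower, 0.278% with that median, 6.57% with no background correction and 6.98% with the authors' values. It was 6.8% with trend and robust moderation and 7.25% with array weights. The share higher was 7.22%, and 1.31% with no filter. With a Luc control or Itgb3-17 array left out, 3.01% to 6.48% were higher and 2.57% to 5.57% lower. For Itgb3-20, 5.71% were higher and 5.27% lower, and 1.25% and 0.315% with that median. The share higher was 6.44% with no background correction, 6.57% with trend and robust moderation and 6.89% with the authors' values. The share lower was 0.731% with no filter. With a Luc control or Itgb3-17 array left out, 3.73% to 5.23% were higher and 3.65% to 4.9% lower. Between hairpins, 0.285% were lower, and 0.323% to 0.999% in the processing settings that called Mcm3. Shares of genes under the alternatives are not given here. Knockdown minus control gave 5 member probes higher and 9 lower. Lower probes were 1 with the median over all probes and 5 with no filter, and with an array left out there were 4 to 8 higher (8 without Itgb3-20 replicate 5) and 6 to 9 lower. By gene, 3 higher and 7 lower became 5 higher with no background correction, and 1 lower with the median over all probes or 4 lower with the mean of a gene's probes. Other settings added falls. Mcm2 and Mcm4 were called lower with the authors' values and with no background correction, and Mcm2 with trend and robust moderation. No background correction also ended the calls of Mcm7 and Pcna. With an array left out 3 to 5 genes were higher and 4 to 7 lower, with 4 without Luc control replicate 2 or 3 or Itgb3-17 replicate 3. For Itgb3-17, 5 higher became 3 with no filter and 2 to 5 with an array left out. Its 5 lower became 0 with the median over all probes, 9 with no background correction or the authors' values, 8 with trend and robust moderation or array weights, and 3 to 9 with an array left out. For Itgb3-20, 3 higher became 0 with the median over all probes, 5 with no background correction or trend and robust moderation, 6 with the authors' values, and 1 to 5 with an array left out. Its 6 lower became 0 with the median over all probes, 2 with no filter, and 3 to 6 with an array left out. Between hairpins, 0 lower became 1 (Mcm3) with the median over the tested probes, no background correction, the authors' values, trend and robust moderation or array weights, and 0 to 1 with an array left out.

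The titles number the Itgb3-17 and control arrays alike, though 1 of 3 Itgb3-17 arrays correlated best with the control of its own number. With that number as a replicate block over these 6 arrays, 6 member probes were higher and 9 lower, and the same arrays without the block also gave 9 lower, an alternative chosen after seeing the data. Over all probes 9.43% were higher and 7.89% lower with the block, and 7.34% were lower without it. Dim genes such as Pcna and Cdc6 sit near background, where differences are compressed.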

Other observations

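Single arrays carried part of the spread within the Itgb3-20 group. Mcm3 stood at 5.08 and 6.33 on its arrays, and Rbbp7 at 5.02 and 6.24, with the lower value of both genes on replicate 4. E2f2 went the other way, with 7.05 on replicate 4 and 6.14 on replicate 5.

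Of the 48 genes, 11 had no tested probe: Orc1, Orc2, Orc4, Gmnn, Gins3, Rfc3, Pola1, Prim1, Pole2, Ccne1 and Slbp. Nothing is said here of their direction.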
